A study of Mus musculus with 6 samples.

Results

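The genes described here belong to the unfolded protein response and to the set of genes that ATF4 controls. A list of 38 mouse genes was matched to the non-control spots of a microarray through the gene symbol in a spot's description or the accession on which its probe was designed. The match gave 49 probes on 58 spots, out of 55681 probes on 59305 spots, and all 38 genes had at least 1 probe, out of 20968 genes that probe accessions named. One probe, of *Pdia6*, was matched by its description alone.

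RNA came from 1G11 cells, a mouse microvascular endothelial line labeled as strain C57BL/6NCrLBR, either mock-modified (1G11-mock, labeled as not overexpressing SOD3) or overexpressing SOD3, the secreted superoxide dismutase (1G11-SOD3). Both lines had spent 6 h in conditioned medium of N202.1A cells, a mouse mammary cancer line, before RNA was taken, and no arrays of cells without that medium are part of the comparison, so the values describe a difference between modified lines and not a response to the medium. Each line had 3 arrays on the same slide, and the replicates are described as independent experiments. On the slide, one row held the mock line and the other the SOD3 line, so cell line and slide row cannot be told apart, and the sources used here do not say whether each line was 1 clone.

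When unfolded proteins gather in the endoplasmic reticulum (ER), the sensors IRE1α (*Ern1*), PERK (*Eif2ak3*) and ATF6 start a program that raises the folding and degradation capacity of the ER. IRE1α splices the mRNA of *Xbp1* and ATF6 is cleaved to a transcription factor, and both act on chaperone genes through the ER stress response element. PERK phosphorylates eIF2α, which slows translation in general and favors that of ATF4, a factor that drives genes of amino acid supply and, through CHOP (*Ddit3*), genes of feedback and cell death. An array of this kind reads the amount of mRNA, not splicing, cleavage or phosphorylation.

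The elements through which these factors act were looked for in the promoters of the genes, and 14 genes held at least 1 of the 4 searched. RefSeq promoters (GRCm38.p6, 250 bases before to 50 bases after a transcription start) were given for 34 of the 38 genes and not for *Atf6*, *Hyou1*, *Derl1* and *Manf*. The ER stress response element (ERSE, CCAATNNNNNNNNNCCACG on either strand) was found in 8 of the 34 genes, and in 0.137% of all 27025 genes with a promoter. Each of its 9 matches is given with 5 bases on either side, read on the strand of the element, the fixed letters in capitals.

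Hspa5, chr2:34772020-34772048, plus strand: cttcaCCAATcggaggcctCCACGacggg
Calr, chr8:84847070-84847098, plus strand: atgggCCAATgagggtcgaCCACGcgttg
Hsp90b1, chr10:86705633-86705661, minus strand: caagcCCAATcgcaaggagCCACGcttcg
Hsp90b1, chr10:86705528-86705556, plus strand: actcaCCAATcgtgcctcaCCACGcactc
Canx, chr11:50325795-50325823, minus strand: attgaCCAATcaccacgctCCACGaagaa
Pdia6, chr12:17266486-17266514, plus strand: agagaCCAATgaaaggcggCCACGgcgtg
Dnajc3, chr14:118937822-118937850, plus strand: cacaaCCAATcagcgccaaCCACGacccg
Creld2, chr15:88819515-88819543, minus strand: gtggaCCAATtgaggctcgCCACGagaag
Syvn1, chr19:6046527-6046555, plus strand: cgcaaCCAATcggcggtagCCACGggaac

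The second form of the element (ERSE-II, ATTGG and CCACG with 1 base of any kind between them) was found in *Herpud1* and *Dnajb11*, 2 of 34 genes against 0.0444% of all genes. The C/EBP-ATF response element that ATF4 binds (CARE, TGATGNAAN) was found in 5 of 34 member genes against 4.50% of all genes, namely in *Asns*, *Chac1*, *Herpud1*, *Trib3* and *Vldlr*. The XBP1 element TGACGTGG was found in none of the 34 and in 0.714% of all genes. No match overlapped another. These are matches of letters and not measured binding. The windows of *Herpud1*, which holds an element of either kind, and of the other 4 genes with the ATF4 element were as follows, again with the fixed letters in capitals.

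Herpud1 (ERSE-II), chr8:94386372-94386392, plus strand: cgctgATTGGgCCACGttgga
Herpud1 (CARE), chr8:94386311-94386329, minus strand: cgggcTGATGcAAcccgcc
Asns (CARE), chr6:7693219-7693237, minus strand: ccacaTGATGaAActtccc
Chac1 (CARE), chr2:119351043-119351061, minus strand: aggagTGATGcAAcggcag
Trib3 (CARE), chr2:152344034-152344052, plus strand: ccggcTGATGtAAacctga
Vldlr (CARE), chr19:27216814-27216832, minus strand: agcgcTGATGcAActattg

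Values below are log2 spot intensities after background correction and quantile normalization, and differences are log2 fold changes of 1G11-SOD3 against 1G11-mock cells, so that positive values mean more signal in 1G11-SOD3. Calls needed a change of over 2-fold with an adjusted p below 0.05 (limma, Benjamini-Hochberg over all probes of the array), and differences past the adjusted p at any size are also given. On each array, between 34.2% and 43.8% of spots passed the scanner software's test for signal well above background, and none was saturated. The middle of the array, rows 129 to 256 of 384 and columns 55 to 109 of 164, read dim on the 1G11-mock arrays, which raises differences there, so probes were treated apart inside and outside it. A position adjustment, which subtracts from each array a surface fitted along its rows and columns, is given as a second value. *Sod3* itself read 13.61, 12.66 and 9.86 in 1G11-mock and 16.37, 16.30 and 16.26 in 1G11-SOD3 cells, a difference of 4.27 (adjusted p = 0.00740) from a spot in the middle, or 2.12 after position adjustment (adjusted p = 0.00545).

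The labels call the cells endothelial, and the paper reports regular checks of this origin by staining for the protein VE-cadherin, the product of *Cdh5*. Of 10 endothelial markers with a probe outside the middle, *Eng*, *Kdr* and *Vwf* were well above background on all 6 arrays. *Cdh5*, *Tek*, *Tie1*, *Emcn* and *Robo4* were so on none, and the rest on some arrays. A dim probe does not show that a gene or its protein is absent. *Vwf* was lower in 1G11-SOD3 cells by both values (-1.66, adjusted p = 0.00330, and -1.46, adjusted p = 0.0258). Of 7 fibroblast and mural markers, *Col1a1* (3.1, adjusted p = 0.00143), *Pdgfrb* and *Lum* were higher in 1G11-SOD3 cells, *Lum* with 0 of 3 arrays of the mock line well above background. *Col1a1* and *Pdgfrb* remained past the threshold after position adjustment, at 2.22 and 2.21. None of the 6 epithelial or 6 leukocyte markers passed the test, 3 and 4 of them being above background on no array. Well above background on all 6 arrays were 1 epithelial, 2 leukocyte and 3 of the 7 fibroblast and mural markers. The part of these marker differences in the results below was not tested.

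Among the 38 genes, *Ddit3* was the one called outside the middle. It encodes CHOP, the transcription factor that links PERK and ATF4 to cell death, and its probe lies on chromosome 10 (126732518 to 126732821 in the array annotation, whose build the files do not give, a span longer than the 60 bases of the probe). It read 11.83, 12.41 and 12.23 on the 1G11-mock arrays and 11.04, 11.02 and 10.55 on the 1G11-SOD3 arrays. Every 1G11-SOD3 array was thus below every 1G11-mock array. The means were 12.15 ± 0.29 and 10.87 ± 0.28 (SD, n = 3 each), a difference of -1.28 (standard error 0.251, 95% interval -1.84 to -0.73, adjusted p = 0.0187), or 2.44-fold. After position adjustment it was -0.99 (95% interval -1.47 to -0.51, adjusted p = 0.0492), just short of 2-fold and at the edge of the adjusted p threshold. With the replicate number as a block the adjusted p was 0.0148, and 0.0289 with block and position adjustment together.

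The call of *Ddit3* was lost without any one of 4 arrays. The difference ran between -1.45 and -1.13 with 1 array left out, but the adjusted p was 0.0516 without 1G11-SOD3 replicate 1, 0.0788 without 1G11-SOD3 replicate 3, 0.0877 without 1G11-mock replicate 2 and 0.0549 without 1G11-mock replicate 3. After position adjustment it did not pass without any one array (adjusted p from 0.0821 to 0.191). With a surface that was not weighted by intensity the adjusted p was 0.0668.

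In the other direction 1 probe passed the adjusted p threshold, that of *Pdia6*, a protein disulfide isomerase that forms and rearranges disulfide bonds in the ER. It read 9.82, 9.57 and 9.77 in 1G11-mock and 10.71, 10.85 and 10.57 in 1G11-SOD3 cells, with no overlap. The difference was 0.99 (standard error 0.219, adjusted p = 0.0331), under 2-fold, and after position adjustment 0.61 (adjusted p = 0.191). It did not pass without any one of the 6 arrays (adjusted p from 0.050 to 0.162). A brighter probe of *Pdia6* for the same transcript read 14.89, 14.90 and 15.35 against 15.42, 15.42 and 15.31, which overlap, and differed by 0.34 (adjusted p = 0.557). The last, on a predicted transcript, read 7.37, 6.55 and 7.12 against 7.38, 6.68 and 6.84 and was well above background on no array, and its fold change is left out.

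Counted over the 46 rows of member probes outside the middle, 0 were called higher and 1 lower, where 0.66% and 1.2% of the 49526 probes there were called. At any size, 1 passed higher and 1 lower, or 2.17% of the members in either direction, against 0.705% and 1.29% of all probes. Counts of 1 do not set the members apart from that background. At an unadjusted p under 0.05 there were 10 higher (21.7%, against 4.69% of all probes outside the middle) and 4 lower (8.70%, against 8.0%). Past 2-fold were 3 of those 10, as were 547 of the 2324 probes that were higher at that p (1.1% of all 49526). Of the member rows 41 of 46 were well above background on all arrays, but of all probes outside the middle 15247 of 49526, so these shares compare sets that differ in brightness. After position adjustment 1 passed higher, *Phgdh*, and 1 lower, *Ddit3*, against 0.664% and 0.783% of all probes. With the replicate number as a block, *Sdf2l1* was called higher, and *Ddit3* and *Herpud1* lower, against 0.913% and 1.6% of all probes.

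For 32 of the 46 rows the 95% interval of the difference spanned 0, and the interval says how much they could differ. Over the 41 member rows outside the middle that were well above background on all 6 arrays, the median distance from the difference to the end of its 95% interval was 0.62 on the log2 scale, or 0.50 after position adjustment. The plot of all 36 genes with a probe outside the middle shows both values with their intervals. Their median difference was 0.28, and 24 of 36 were above 0, where the median of all probes outside the middle was -0.06 and that of the 15247 that were well above background on all arrays was -0.17. After position adjustment the median was 0.37, with 27 of 36 above 0, against -0.0056 for those 15247 probes.

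**Figure D1:**
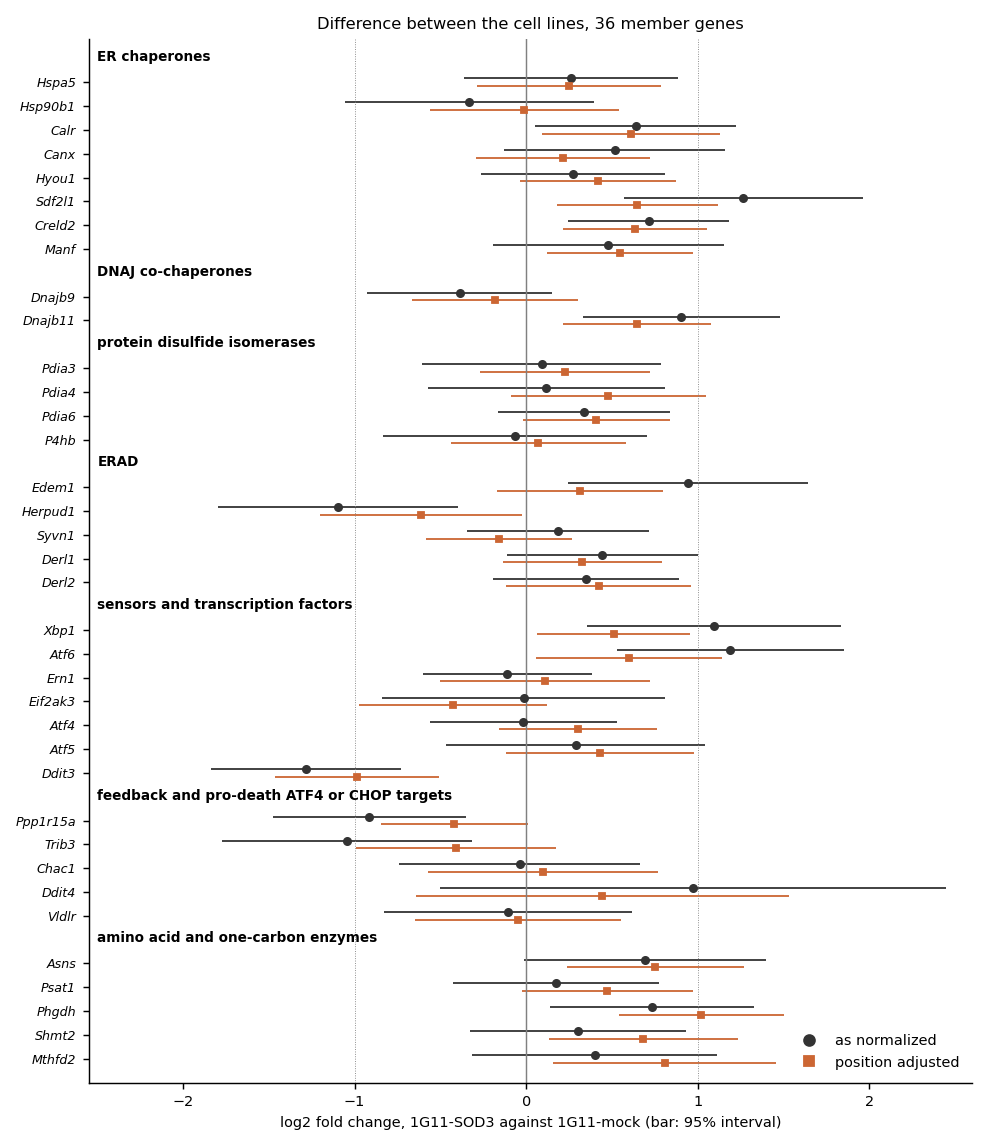
Log2 fold change of 1G11-SOD3 against 1G11-mock cells for the brightest probe outside the middle of each of 36 genes, grouped by role, as normalized (circles) and position adjusted (squares), with 95% intervals and dotted lines at 2-fold. The intervals of *Ddit3* and *Herpud1* stay below 0 by both values. Those of *Phgdh*, *Calr*, *Sdf2l1*, *Creld2*, *Dnajb11*, *Xbp1* and *Atf6* stay above it, while those of *Hspa5*, *Atf4*, *Ern1* and *Eif2ak3* span 0.

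Of the 41 bright rows, 10 had every 1G11-SOD3 array above every 1G11-mock array (24.4%, against 8.04% of the 15247 bright probes outside the middle), and 4 had every 1G11-SOD3 array below (9.76%, against 20.9%). After position adjustment the numbers were 14 (34.1%, against 14.5%) and 4 (9.76%, against 13.7%). The members were chosen with earlier results of these data known and several are probes of 1 gene, so these shares are descriptions.

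Of the sensors and factors, *Ddit3* alone passed the test. *Ern1*, which encodes IRE1α, read 10.19, 9.98 and 9.73 in 1G11-mock and 9.90, 9.79 and 9.88 in 1G11-SOD3 cells, a difference of -0.11 (95% interval -0.60 to 0.38). *Eif2ak3*, which encodes PERK, read 11.17, 10.79 and 9.75 against 11.05, 9.98 and 10.64, a difference of -0.02 (95% interval -0.84 to 0.81) that was -0.43 after position adjustment (95% interval -0.97 to 0.12). For both genes the lines overlapped.

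*Atf6* read 8.53, 8.87 and 7.90 in 1G11-mock and 9.22, 9.62 and 10.03 in 1G11-SOD3 cells, with 2 of the 3 arrays of the mock line well above background. The lines did not overlap, and the difference was 1.19 (standard error 0.302, adjusted p = 0.0612). Over the alternatives with all arrays the adjusted p ran from 0.0467 to 0.332, and 3 of 14 passed. Its spot, in row 123 and column 90, lies 6 rows above the middle, and the position adjustment took off 0.59, which left 0.60 (95% interval 0.05 to 1.14, adjusted p = 0.332).

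The same held for *Xbp1*, the factor whose mRNA IRE1α splices, at row 120 and column 97. It read 14.73, 14.47 and 13.30 in 1G11-mock and 15.10, 15.35 and 15.35 in 1G11-SOD3 cells, with no overlap and with 1G11-mock replicate 3 far below the other two. The difference was 1.10 (standard error 0.338, adjusted p = 0.129) and 0.51 after position adjustment (95% interval 0.06 to 0.96, adjusted p = 0.310). The probe does not tell spliced from unspliced mRNA.

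*Atf4*, the factor through which PERK acts, had 2 probes and passed the test at neither. The brighter read 15.56, 15.63 and 16.11 in 1G11-mock and 15.98, 15.78 and 15.48 in 1G11-SOD3 cells (difference -0.02, 95% interval -0.56 to 0.53). The other read 10.01, 10.08 and 11.23 against 10.18, 10.45 and 11.10 (0.14, 95% interval -0.64 to 0.92). After position adjustment they were 0.30 and 0.22, neither past the threshold (adjusted p = 0.595 and 0.735). *Atf5*, a related factor, was at 0.29 (adjusted p = 0.766). The difference between these values and that of *Ddit3*, the factor downstream, was not tested.

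**Figure D2:**
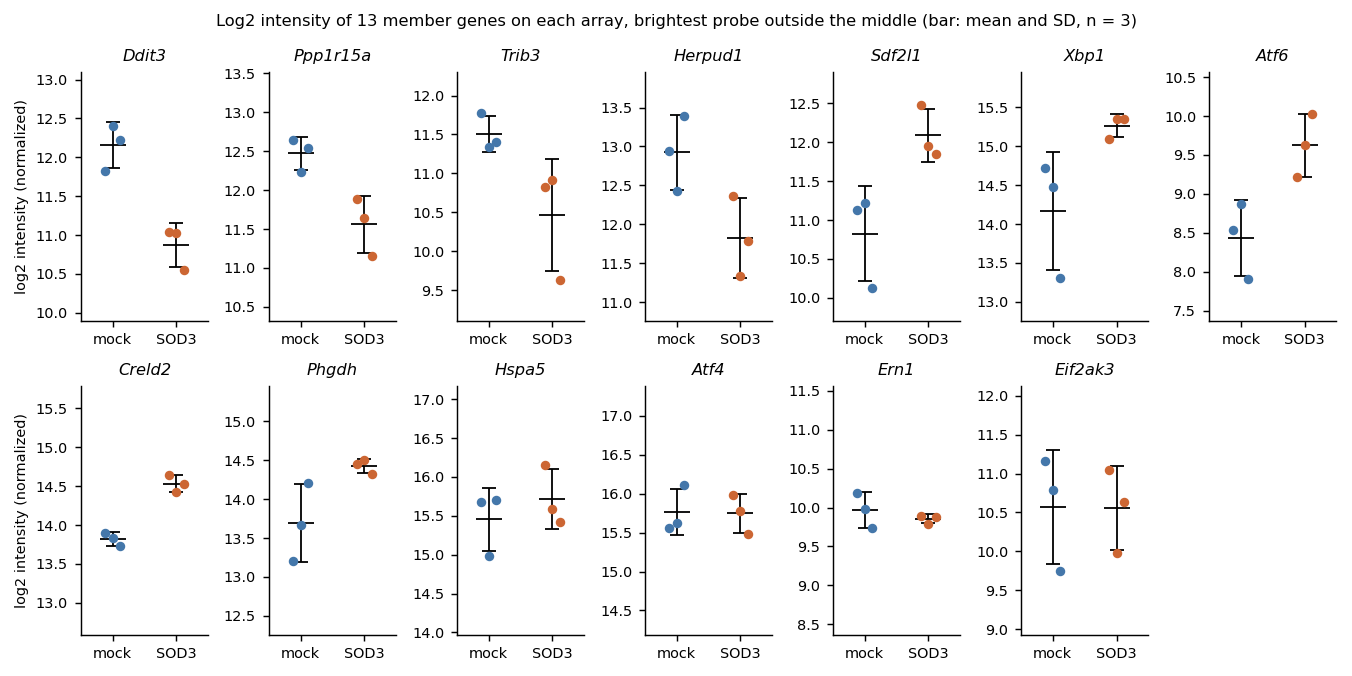
Log2 intensity on each array of 13 member genes, brightest probe outside the middle, in 1G11-mock (blue) and 1G11-SOD3 cells (orange), with the mean and SD of 3 arrays. Every vertical axis spans 3.2 log2 units around its own center. *Ddit3*, *Ppp1r15a*, *Trib3* and *Herpud1* read lower on every 1G11-SOD3 array, *Sdf2l1*, *Xbp1*, *Atf6*, *Creld2* and *Phgdh* read higher, and the last 4 genes overlap.

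Of 5 genes grouped as feedback, cell death and other targets of ATF4 or CHOP, none passed the test, and 2 read lower on every 1G11-SOD3 array. *Ppp1r15a*, whose product GADD34 brings a phosphatase to eIF2α, read 12.65, 12.23 and 12.54 in 1G11-mock and 11.88, 11.64 and 11.15 in 1G11-SOD3 cells. *Trib3*, a pseudokinase induced by CHOP, read 11.77, 11.35 and 11.40 against 10.83, 10.92 and 9.63. The lines did not overlap at either gene, with differences of -0.91 (adjusted p = 0.0914) and -1.05 (adjusted p = 0.143). Their spots are in columns 11 and 3, at the edge of the array, and the position adjustment left -0.42 (95% interval -0.85 to 0.01) and -0.41 (95% interval -0.99 to 0.17).

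The other 3 genes of that group were near 0 or variable. *Chac1*, which degrades glutathione and carries the ATF4 element, was at -0.04 (95% interval -0.74 to 0.66), and the brighter probe of *Vldlr*, a lipoprotein receptor, at -0.11 (95% interval -0.83 to 0.62). *Ddit4*, an inhibitor of mTORC1, read 15.79, 15.12 and 12.28 in 1G11-mock and 15.48, 15.40 and 15.23 in 1G11-SOD3 cells. Its difference of 0.97 (adjusted p = 0.569) was -0.08 without 1G11-mock replicate 3, the other arrays lying within 15.12 to 15.79. A second *Vldlr* probe, inside the middle, was above background in none of the mock samples, and its fold change is left out.

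None of 8 ER chaperones passed the test, and 7 of the 8 differences were above 0 by either value. *Hspa5*, which encodes BiP, the main ER chaperone and the one that holds the sensors inactive, read 15.68, 14.99 and 15.70 in 1G11-mock and 16.16, 15.58 and 15.42 in 1G11-SOD3 cells. These overlap, with a difference of 0.26 (95% interval -0.36 to 0.89, adjusted p = 0.737) and of 0.25 after position adjustment (95% interval -0.29 to 0.79). A change of 2-fold in *Hspa5* in either direction lies outside both intervals.

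*Sdf2l1*, a partner of BiP in the ER, read 11.13, 11.22 and 10.13 in 1G11-mock and 12.48, 11.95 and 11.85 in 1G11-SOD3 cells, with no overlap. The difference was 1.26 (standard error 0.317, adjusted p = 0.0576), and 0.0177 with the replicate number as a block. Its spot, in row 162 and column 52, lies beside the middle, and the position adjustment took off 0.62 and left 0.65 (95% interval 0.18 to 1.12, adjusted p = 0.205).

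*Calr*, the lectin chaperone calreticulin, read 14.21, 14.92 and 15.13 against 15.41, 15.39 and 15.38, with no overlap and a difference of 0.64 (adjusted p = 0.294) that hardly moved with position (0.61). *Canx*, its membrane-bound relative calnexin, read 15.61, 15.54 and 14.56 against 15.70, 15.66 and 15.89. Its difference was 0.51 (adjusted p = 0.470), and after position adjustment 0.21 and overlapping. *Manf*, a secreted ER stress factor, was at 0.48, *Hyou1*, an exchange factor for BiP, at 0.27 and *Hsp90b1*, which encodes GRP94, at -0.33 or, position adjusted, at 0.55, 0.42 and -0.01 (adjusted p = 0.241, 0.431 and 0.992).

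*Creld2*, an ER protein that responds to ER stress, is printed 10 times at scattered places, 9 of them outside the middle, which gave the same sequence under 10 local conditions. The mean of the copies outside the middle read 13.90, 13.83 and 13.73 in 1G11-mock and 14.65, 14.43 and 14.53 in 1G11-SOD3 cells, with no overlap. The difference was 0.71 (standard error 0.214, 95% interval 0.24 to 1.18, adjusted p = 0.118), and 0.63 after position adjustment (95% interval 0.21 to 1.05, adjusted p = 0.160). Single copies outside the middle gave 0.23 to 2.13, the highest being the copy at row 127 and column 87, 2 rows above the middle. Some of these copies lack an array whose spot was an outlier. The highest lacks 1G11-mock replicate 2 and the lowest 1G11-SOD3 replicate 3. The copy inside the middle gave 2.68 (adjusted p = 0.0665, with 1G11-mock replicate 2 left out as an outlier spot). With the replicate number as a block that copy was called (adjusted p = 0.0210), and its difference was 4.24 without 1G11-mock replicate 1 and 1.13 without 1G11-mock replicate 3.

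After position adjustment the 10 copies of *Creld2* gave 0.51 to 0.93, all above 0. They are copies of 1 probe on the same arrays, and add no biological replicate.

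**Figure D3:**
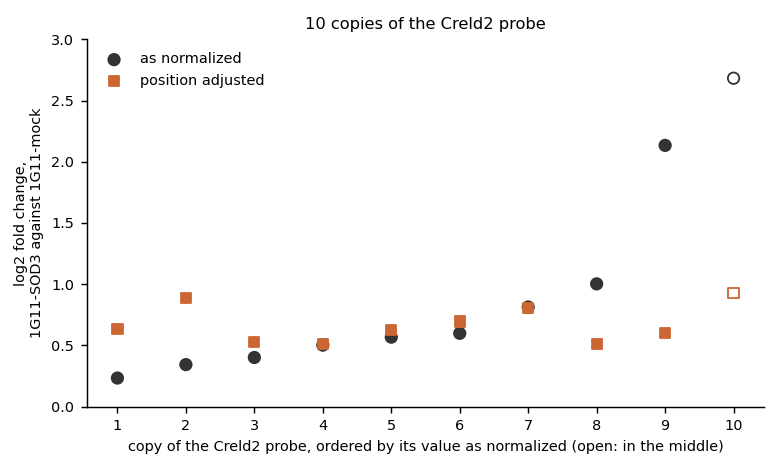
Log2 fold change of 1G11-SOD3 against 1G11-mock cells at each of the 10 copies of the *Creld2* probe, ordered by the value as normalized (circles), beside the position-adjusted value (squares), with the copy in the middle of the array drawn open. As normalized the copies run from 0.23 to 2.68, and position adjusted from 0.51 to 0.93.

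Of the DNAJ co-chaperones, which hand substrates to BiP, *Dnajb11* read 12.78, 12.74 and 13.10 in 1G11-mock and 14.10, 13.31 and 13.93 in 1G11-SOD3 cells, with no overlap. Its difference was 0.90 (adjusted p = 0.103) and 0.64 after position adjustment (95% interval 0.21 to 1.08). A second *Dnajb11* probe, for another transcript, read 6.06, 6.91 and 7.08 against 6.60, 6.62 and 6.93, well above background on no array. *Dnajb9*, also known as ERdj4, was at -0.39 (adjusted p = 0.522), and a second probe of it was above background in none of the mock samples. The remaining disulfide isomerases *Pdia3* (0.09), *Pdia4* (0.12) and *P4hb* (-0.07) did not pass the test, and position adjusted they were at 0.23, 0.48 and 0.07.

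*Dnajc3* and *Sel1l* had their only probes inside the middle, where 12.0% of 6445 probes were called higher and 0.0621% lower. Of the 4 member rows there, 0 were called in either direction by limma, while 3 were more than 2-fold higher at an unadjusted p under 0.05, as were 19.6% of all probes there. *Dnajc3*, a co-chaperone that inhibits PERK, read 11.02, 10.18 and 8.30 in 1G11-mock and 11.38, 11.05 and 12.26 in 1G11-SOD3 cells. *Sel1l*, the adaptor of the HRD1 ubiquitin ligase, read 10.24, 10.14 and 8.38 against 11.14, 10.64 and 10.87. Their differences were 1.73 (adjusted p = 0.154) and 1.29 (adjusted p = 0.158), and the position adjustment left 0.21 (95% interval -0.41 to 0.82) and -0.13 (95% interval -0.58 to 0.32), with overlap.

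Genes of ER-associated degradation, which returns misfolded proteins to the proteasome, went both ways. *Herpud1*, a membrane protein of the degradation complex whose promoter holds both the second ER stress element and the ATF4 element, read 12.95, 12.43 and 13.39 in 1G11-mock and 12.36, 11.33 and 11.79 in 1G11-SOD3 cells, with no overlap. The difference was -1.10 (standard error 0.319, adjusted p = 0.105), it was called with the replicate number as a block (adjusted p = 0.0357), and after position adjustment it was -0.61 (95% interval -1.20 to -0.03, adjusted p = 0.359). *Edem1*, which marks misfolded glycoproteins for removal, read 11.36, 11.67 and 10.36 against 12.00, 11.98 and 12.24, a difference of 0.94 (adjusted p = 0.173), or 0.31 with overlap after position adjustment. *Syvn1*, which encodes the HRD1 ligase, was at 0.19, and the brightest probes of the derlins *Derl1* and *Derl2* at 0.44 and 0.35. After position adjustment *Syvn1* changed sign to -0.16 (95% interval -0.58 to 0.27), with every 1G11-SOD3 array below every 1G11-mock array. Those of *Derl1* and *Derl2* were then at 0.33 and 0.42. The dimmer probes of *Derl1* (-0.17) and *Derl2* (-0.38 and 0.16) did not pass either.

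The plot of the differences by place shows where these spots lie. *Xbp1*, *Atf6* and *Sdf2l1*, with differences above 1, sit within 9 rows or 3 columns of the middle, and the position adjustment took 0.59 to 0.62 off each. *Herpud1*, *Trib3* and *Ppp1r15a*, with differences from -1.10 to -0.91, sit in columns 18, 3 and 11, and the adjustment added 0.48 to 0.64 to each. *Ddit3*, at row 139 and column 135, moved by 0.30.

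**Figure D4:**
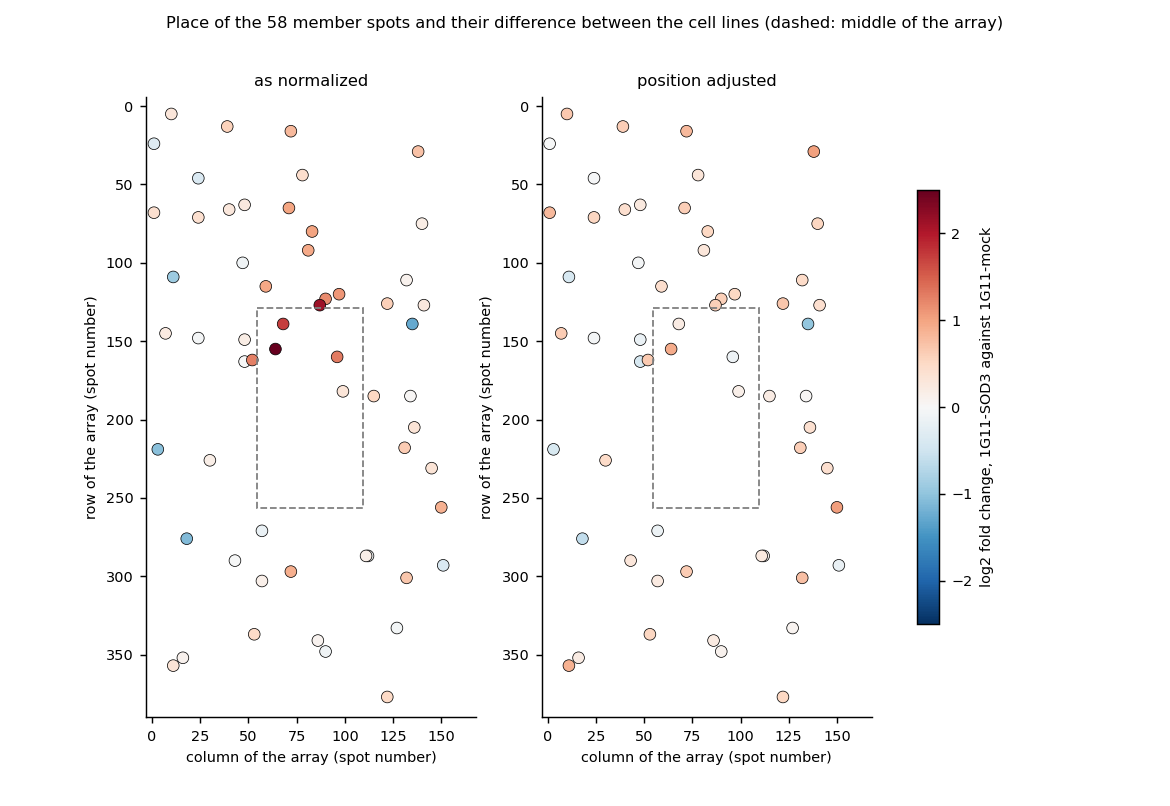
Row and column of the 58 member spots on the array, colored by the log2 fold change of 1G11-SOD3 against 1G11-mock cells as normalized (left) and position adjusted (right), with the middle of the array dashed. As normalized the strongest increases lie in or beside the middle, 2.68 and 2.13 being copies of *Creld2*, and position adjusted *Ddit3* (-0.99) and the 2 *Phgdh* probes (1.02 and 1.04) are farthest from 0.

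All 5 enzymes of amino acid and one-carbon supply were above 0 as normalized, with a median of 0.40, and 0.75 after position adjustment. *Phgdh*, the first enzyme of serine synthesis, had 2 probes, on chromosome 3, neither beside the middle. The brighter read 13.21, 13.66 and 14.21 in 1G11-mock and 14.45, 14.51 and 14.33 in 1G11-SOD3 cells, and the other read 12.85, 13.15 and 13.68 against 13.70, 14.38 and 14.24, with no overlap at either. As normalized the differences were 0.73 (adjusted p = 0.225) and 0.88 (adjusted p = 0.145). After position adjustment they were 1.02 (standard error 0.22, adjusted p = 0.0434) and 1.04 (standard error 0.24, adjusted p = 0.0606), or 0.0293 and 0.0476 with block and position adjustment together. With a surface not weighted by intensity neither passed (adjusted p = 0.0613 and 0.0768), and with 1 array left out the adjusted value of the brighter probe passed only without 1G11-mock replicate 3 (adjusted p = 0.0453, the others up to 0.146).

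*Asns*, asparagine synthetase and a standard ATF4 target, was at 0.69 (95% interval -0.01 to 1.40, adjusted p = 0.357), with 1G11-SOD3 replicate 1 within the range of the 1G11-mock arrays. Position adjusted it was at 0.75 (95% interval 0.24 to 1.27, adjusted p = 0.177). *Psat1*, the next enzyme of serine synthesis, was at 0.17, and its second probe at 0.19. *Shmt2* and *Mthfd2*, mitochondrial enzymes of folate metabolism, were at 0.30 and 0.40. Position adjusted, the brighter *Psat1* probe, *Shmt2* and *Mthfd2* were at 0.47, 0.68 and 0.81, without passing the test (adjusted p = 0.413, 0.263 and 0.264).

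Members with the first form of the ER stress element (ERSE) and a probe outside the middle, 7 in all, had a median difference of 0.34, and the 5 with the ATF4 element one of -0.11. Position adjusted, these were 0.25 and -0.05. The 2 members with the second form, *Dnajb11* and *Herpud1*, differed in sign, at 0.90 and -1.10, or 0.64 and -0.61 position adjusted. *Ddit3* and *Phgdh* held none of the 4 elements in the window searched.

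Other genes of the same pathways were taken from 6 lists of 142 genes, 127 of which had a probe outside the middle, and each was represented by its brightest probe there. Of these, 4 were past the adjusted p threshold higher and 6 lower, where 0.705% and 1.29% of all probes outside the middle were, and after position adjustment 1 and 2, against 0.664% and 0.783%. Being chosen as the brightest, these probes differ in brightness from all probes, here and in the lists below. With dim probes left out, 1240 of 17658 probes outside the middle passed as normalized, in either direction, so the counts do not set these genes apart. With the replicate number as a block 7 were higher, where 1430 of all 49526 probes passed in either direction, against 990 without the block. These 7 are of 1 direction, and the share of all probes by direction was not counted at that threshold with the block. The median difference of the 127 was 0.07, or 0.16 position adjusted.

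Among 23 other targets of ATF4 and CHOP, 1 was higher and 4 lower, beside the same 0.705% and 1.29% of all probes. *Atf3*, a stress-induced factor that ATF4 and CHOP act with, was lower by -1.79 (10.54 ± 0.20 in 1G11-mock and 8.75 ± 0.56 in 1G11-SOD3 cells, SD, n = 3 each, adjusted p = 0.00689). *Gpt2*, an alanine transaminase, was lower by -1.70 (12.86 ± 0.40 and 11.16 ± 0.13, SD, n = 3 each, adjusted p = 0.00436). Both held after position adjustment, at -1.55 and -1.61 (adjusted p = 0.0145 and 0.00490). *Sesn2*, a leucine sensor that restrains mTORC1, was lower by -1.14 (adjusted p = 0.0187), but at -0.83 after position adjustment did not pass (adjusted p = 0.119).

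*Nupr1*, a stress-induced nuclear protein, also passed lower as normalized (-0.97, named after its value was seen, as the sixth of the 6), and *Slc1a5*, a glutamine carrier, passed higher (0.99, adjusted p = 0.0448), neither after position adjustment. Among 28 genes of ER folding and glycosylation, *Hspa13* (-1.18) and *Stt3b* (-0.97), a subunit of the oligosaccharyltransferase, were lower as normalized, and at -0.37 and -0.21 after position adjustment were not past the threshold.

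Of 16 sensor modulators and eIF2α kinases, *Creb3l1*, a membrane-bound factor cleaved in the same way as ATF6, was higher by both values (1.43, adjusted p = 0.00578, and 1.13, adjusted p = 0.0183). Among 17 cytosolic aminoacyl-tRNA synthetases, many of them ATF4 targets, *Vars1* (1.61) and *Tars1* (1.22) were higher as normalized but not position adjusted (0.81 and 0.33). None of the 23 genes of ER translocation and export or of the 21 other genes of ER-associated degradation passed, and their medians were 0.27 and -0.23.

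**Figure D5:**
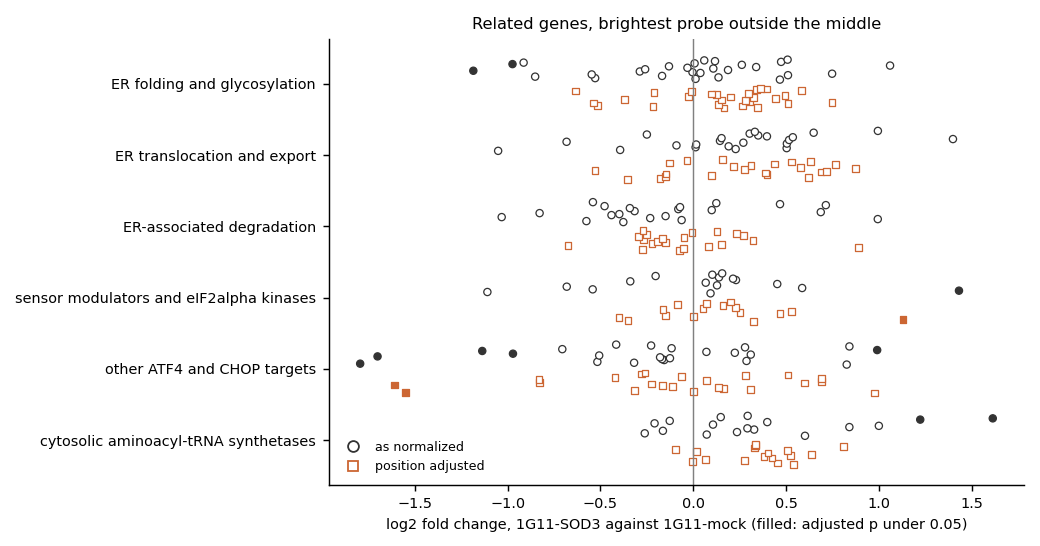
Log2 fold change of 1G11-SOD3 against 1G11-mock cells for the brightest probe outside the middle of each gene in 6 lists of related genes, as normalized (circles) and position adjusted (squares), filled where the adjusted p was under 0.05. *Atf3*, *Gpt2* and *Creb3l1* are filled by both values.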

How the data were processed

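Single-color Agilent mouse arrays (8 × 60 format) held RNA of 3 1G11-mock and 3 1G11-SOD3 samples. The deposited scanner files, made by the authors with Agilent Feature Extraction, give the mean intensity and the local background median of each spot on a linear scale. The deposited table of log2 values had a median of 7.52 on each array, and was recomputed from median intensities with control spots kept to within 0.005 for 99% of its values.

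Here, intensities were background corrected (normexp, offset 50), put on a log2 scale and normalized by quantiles (R 4.3.3, limma 3.58.1). Control and outlier spots were left out. Spots of a probe were averaged separately inside and outside the middle of the array, which gave 55971 rows. The lines were compared with lmFit and eBayes and Benjamini-Hochberg adjustment over all rows. Calls needed a change of over 2-fold with an adjusted p below 0.05. Precision is limited by having 3 arrays per line. In data simulated over 55971 rows, 64 of 100 4-fold and 2 of 100 2-fold changes passed the adjusted p threshold, as did 0 of 55771 unchanged rows. With a dim middle simulated on the 1G11-mock arrays, the numbers were 63, 4 and 9, and with the position adjustment 62, 2 and 0. The 2-fold rule was not applied there. The simulated dimming used the intensity weight of the position adjustment itself and lay around the center of the array alone. Its removal was thus largely set in advance. The simulation capped the SD of each row at a value that some real rows exceed. It also changed no rows but these, which makes the adjusted p stricter, so its rates do not carry over to the real arrays.

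For the position adjustment a smooth surface over row and column (mgcv 1.9.3, basis 24 by 16) was fitted on each array to spots with a mean log2 above 10, leaving out probes printed 10 times, and subtracted with a weight rising from 0 at log2 7.5 to 1 at log2 10. The weight was chosen after seeing the data. Several versions were tried, and member values had been seen under some of them. Among the 8 listed, the one used had the smallest median SD over the copies of 192 bright probes (0.140, against 0.541 without adjustment). It was not the best on every measure. These 2 values were taken with outlier spots kept, and with outlier spots left out they were 0.146 and 0.438.

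The members, gene lists and tests were chosen with earlier results of these data known. Every member is named. Values on each array are given for the sensors, *Atf4*, *Xbp1*, *Ddit3* and *Hspa5*, and for members past the adjusted p threshold or with no overlap and a log2 fold change beyond 0.5. At most 5 related genes in each direction are named, with 1 exception. Same-numbered arrays of the lines deviated together (correlations of 0.141, 0.144 and 0.236 over 15177 probes), so the number was used as a block in an alternative. The number is also the column of the slide, and pairing and slide column cannot be told apart. Other alternatives were the scaling, background correction, offset, filter on dim probes, variance trend and leaving out each array. Promoter sequences are from RefSeq (GRCm38.p6).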

Additional observations from a re-analysis of the deposited data

How the results depend on the processing

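The median difference of the member genes stayed above 0 under every alternative. It was 0.28, and moved beyond its replicate spread of 0.078 to 0.40 with 75th percentile scaling, 0.38 with the middle left out, 0.37 with position adjustment, alone, with the replicate block or with full weight from log2 9.5, 0.39 with the unweighted surface and 0.37 with the processed signal. It ran from 0.26 to 0.33 with 1 array left out, and from 0.30 to 0.41 with position adjustment as well (0.36 without 1G11-mock replicate 3). Scaling moved the median of all probes outside the middle from -0.06 to -0.36 (75th percentile) and -0.50 (processed signal), so counts by direction under these 2 are relative to that shift. The unweighted surface moved it to 0.13. The position weights, position adjustment with the block and position adjustment with arrays left out were added after seeing the data.

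Outside the middle, member probes called higher (0) were 4 with 75th percentile scaling, 2 with the deposited table, dim probes left out, median spot intensity, processed signal or position adjustment with the block, and 1 with cyclic loess, the middle left out, position adjustment, full weight from 9.5 or the replicate block. The counts of members here are of probes, and the 2 with position adjustment and block were both of *Phgdh*. Members called lower (1) were 0 under all forms of position adjustment and 2 with processed signal or the replicate block. At any size, higher members (1) were 4 with 75th percentile scaling, 3 with dim probes left out, 2 with the deposited table, median spot intensity, no background correction, processed signal, the replicate block or position adjustment with the block, and 0 with an offset of 16, the variance trend or the unweighted surface. Lower members (1) were 2 with processed signal or the replicate block and 0 with the unweighted surface. Of all 49526 probes outside the middle, 990 passed at any size, in either direction. This number was 1480 with 75th percentile scaling, 8308 with processed signal, 1430 with the replicate block and 1035 with position adjustment and block. With dim probes left out it was 1240 of 17658, and with the other settings on all arrays 608 to 1045. Shares called at over 2-fold were counted only as normalized and with the replicate block. The other counts of calls thus have no matching share of all probes, and do not set the members apart. Inside the middle, members called higher (0) were 3 with 75th percentile scaling and 1 with the deposited table, outlier spots kept or the replicate block. No share of all probes there was counted under these settings, and as normalized 12.0% of 6445 were called higher.

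With 1 array left out, members called higher were 0 outside and 0 to 2 inside the middle, 0 to 1 were lower, and past the adjusted p threshold at any size 0 were higher and 0 to 1 lower. With position adjustment as well, 0 to 2 were higher and 0 lower, called or at any size. The 2, without 1G11-mock replicate 3, were the 2 probes of *Phgdh*. Of all 49526 probes outside the middle, 439 to 860 passed with 1 array left out, and 274 to 651 with position adjustment as well. Without 1G11-mock replicate 1, 2 members inside the middle were called, where the share of all probes called was not counted without that array. Higher related genes (4) were 8 with 75th percentile scaling, 7 with the replicate block, 2 with an offset of 16 or the variance trend, and 1 with position adjustment, full weight from 9.5 or the unweighted surface. Lower related genes (6) were 3 with 75th percentile scaling, cyclic loess, the middle left out or the variance trend, and 2 with an offset of 16 or position adjustment, with the block, full weight from 9.5 or the unweighted surface too. With 1 array left out they were 1 to 3 higher and 2 to 4 lower, and with position adjustment as well 0 to 1 and 1 to 2. The second *Dnajb11* probe, above background on no array, turned to -1.04 (adjusted p = 0.0402) with the processed signal. Beyond *Sdf2l1*, *Herpud1* and the *Creld2* copy in the middle, the replicate block changed no other call among the members. The cause of these changes was not tested.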
